A study of Mus musculus with 2 samples.

Results

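The ephrin, Slit-Robo and netrin guidance genes were taken by symbol: the Eph receptors, the ephrins, the Slit ligands and Robo receptors, the netrins and netrin-G proteins, and the netrin receptors Dcc, Neo1 and Unc5, each with at least 1 protein-coding transcript. This rule gave 41 of the 55536 genes in the tables. They were 9 EphA and 5 EphB receptors, 5 ephrin-A and 3 ephrin-B ligands, 3 Slit ligands, 4 Robo receptors, 4 netrins, 2 netrin-G proteins, Dcc with Neo1, and 4 Unc5 receptors. The choice used no measured value. The samples were left cerebral cortex from 2 female B6CASTF1/J mice, the F1 hybrids of the C57BL/6 and CAST strains, at 10 days of age. They carried no treatment or engineered allele in the labels and formed a single group, with the animals called biological replicates 1 and 2. Ribosomal RNA had been reduced in the libraries, which were made from 300 ng of total RNA.

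Guidance proteins steer growing axons and migrating neurons by attraction, repulsion and contact. Ephrins are held on the cell surface, the A class by a lipid anchor and the B class by a membrane span, and both bind Eph receptor tyrosine kinases on neighbouring cells. Slit proteins are secreted and act through Robo receptors, while netrins act through Dcc and Neo1, with Unc5 receptors turning the response to repulsion. In the postnatal cortex, members of these families also serve at forming synapses, on dendrites and in blood vessels.

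The gene rows held 29867112 expected reads in replicate 1 and 31031340 in replicate 2. The 41 genes took 90769 and 89858 of them, or 0.304% and 0.290%. Levels are given in TPM, in which reads are divided by transcript length and scaled to a fixed total, so that genes can be compared within a library. Errors are SD over the 2 animals (n = 2 throughout). With 2 animals no exact two-sided p can fall under 0.5, so none was computed, and the spread covers these animals only, which may share a litter or a preparation. All 8 markers of cortical glutamatergic neurons were at 1 TPM or more in both libraries, with Slc17a7, the cortical vesicular glutamate transporter, at 522 and 501 TPM. In a whole tissue, fewer cells of a type and less RNA per cell cannot be told apart.

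Several members were transcribed in forms that differ by short in-frame coding exons, and these are shown first because they separate alternative versions of the same guidance protein. An exon was taken as optional where annotated transcripts either joined its neighbours directly or included it, and its included share is the TPM of the transcripts with the exon over the TPM of both kinds. Of 27 such events, 17 single exons in 10 genes had an included share between 5% and 95%; these limits and exons were chosen after the transcript levels were seen. All 17 had a length that is a multiple of 3, so that including or skipping them keeps the reading frame, and 5 were 27 bases or shorter. The printed exon sequences come from the GENCODE M21 transcripts, with positions on assembly mm10. They are written 5′ to 3′ along the transcript, with the optional exon in capitals and 30 bases of the neighbouring exons in lower case. The first set holds the 5 shortest exons, of the secreted ligand Slit2 and the receptors Robo2 and Unc5d, and a short exon of Neo1.
Slit2, 12 bases, chr5:48191003-48191014, plus strand: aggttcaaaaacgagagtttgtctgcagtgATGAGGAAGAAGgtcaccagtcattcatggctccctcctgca
Slit2, 24 bases, chr5:48220967-48220990, plus strand: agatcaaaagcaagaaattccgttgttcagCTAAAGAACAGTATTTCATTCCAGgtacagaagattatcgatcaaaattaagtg
Slit2, 27 bases, chr5:48263641-48263667, plus strand: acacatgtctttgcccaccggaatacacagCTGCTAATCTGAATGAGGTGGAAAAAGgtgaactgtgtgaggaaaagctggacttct
Robo2, 12 bases, chr16:74008775-74008786, minus strand: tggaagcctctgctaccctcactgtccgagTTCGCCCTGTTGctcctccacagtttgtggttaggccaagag
Unc5d, 15 bases, chr8:28725148-28725162, minus strand: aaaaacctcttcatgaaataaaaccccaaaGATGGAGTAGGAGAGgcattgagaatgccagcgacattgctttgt
Neo1, 33 bases, chr9:58902083-58902115, minus strand: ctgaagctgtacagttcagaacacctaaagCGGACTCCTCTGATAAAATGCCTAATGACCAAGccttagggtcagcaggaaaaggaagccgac

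In Slit2, the 12-base exon was included in 60.9% of informative transcript TPM in replicate 1 and 70.7% in replicate 2. The 24-base exon was included in 34.8% and 27.4%, and the 27-base exon in 26.5% and 17.2%. The first of these short exons was therefore mostly kept and the other two mostly skipped, in both animals. In Robo2, the 12-base exon was included in 57.0% and 59.8%. That share counts Robo2-211, which is incomplete in the annotation, and Robo2-207, which is not coding. Of the complete coding forms, Robo2-210 (16.64 and 15.66 TPM) has the exon. Robo2-202 (34.25 and 31.32 TPM) and Robo2-203 (9.78 and 7.39 TPM) skip it, so most complete coding TPM lacked it in both animals. Longer Robo2 exons of 126 and 273 bases were in the minority, the former at 27.5% and 26.6% and the latter at 39.4% and 37.7%. The 15-base exon of Unc5d was included in 63.9% and 58.7%, and the 33-base exon of Neo1 in 85.7% and 80.7%.

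The second set shows a pair of exons of equal length in related genes that were used in opposite ways. UNC5 receptors carry immunoglobulin and thrombospondin repeats outside the cell, and Unc5a and Unc5d each have an optional exon of 168 bases that ends just before a closely similar stretch of coding sequence. Over the 168 bases without gaps, 126 were identical.
Unc5a, 168 bases, chr13:54997193-54997360, plus strand: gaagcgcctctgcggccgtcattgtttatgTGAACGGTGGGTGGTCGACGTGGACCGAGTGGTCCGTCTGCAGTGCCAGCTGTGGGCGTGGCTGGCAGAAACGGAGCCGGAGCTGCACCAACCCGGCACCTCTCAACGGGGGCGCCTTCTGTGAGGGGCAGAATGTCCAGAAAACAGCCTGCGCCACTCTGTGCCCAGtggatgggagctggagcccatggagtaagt
Unc5d, 168 bases, chr8:28760725-28760892, minus strand: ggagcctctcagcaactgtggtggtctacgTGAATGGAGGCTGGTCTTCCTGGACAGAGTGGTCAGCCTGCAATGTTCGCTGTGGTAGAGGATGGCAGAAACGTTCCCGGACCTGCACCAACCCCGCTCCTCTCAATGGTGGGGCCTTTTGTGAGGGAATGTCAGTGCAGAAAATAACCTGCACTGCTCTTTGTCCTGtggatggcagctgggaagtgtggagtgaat

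The exon was included in 10.0% of Unc5a transcripts in replicate 1 and 9.6% in replicate 2, by TPM. In Unc5d it was included in 82.2% and 83.8%. The alignment-free tables, made straight from the reads without alignment, gave 14.4% and 14.3% for Unc5a and 72.9% and 71.7% for Unc5d. Unc5a transcripts thus mostly lacked the exon and Unc5d transcripts mostly had it, and the animals differed far less than the genes did. Unc5c had a different optional exon, of 57 bases, included in 35.3% and 31.9%.

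Ephrins and Epha5 made up the rest of the optional exons. The 78-base exon of Efna3 was included in 88.9% and 87.3%, the 81-base exon of Efna5 in 74.3% and 60.7%, and the 93-base exon of Efnb2 in 73.8% and 81.2%. Efna5 was the only 1 of the 17 exons whose share differed by more than 10 percentage points between the animals. Epha5 had exons of 66 bases (72.0% and 78.0%), 336 bases (64.3% and 62.7%) and 156 bases (32.8% and 37.3%). The 336- and 156-base exons adjoin. The 336-base share leaves out Epha5-201 and Epha5-204, which have neither. The 156-base share leaves out Epha5-203 and Epha5-205, which have both. Over all complete coding transcripts in the alignment-based tables, most TPM lacked the 336-base exon and most held the 156-base exon, in both animals. Over all 17, the informative share lay on the same side of 50% in both libraries and both quantifications, with 10 above and 7 below. For the 336- and 156-base exons of Epha5 and the 12-base exon of Robo2 this side does not carry over to all complete coding transcripts. The Efna5 share rests on a short skipping form, Efna5-202, of 643 bases, with 57.4 and 139 reads. The same limit holds for Efna3, with Efna3-203 of 742 bases (31.2 and 39.3 reads). It also holds for Efnb2, with the incomplete Efnb2-202 of 652 bases (125 and 73.4 reads). In the alignment-free tables the mean included share was 77.4% for Efna3 and 70.4% for Efnb2. The Efna5 exon is shown because it varied most between the animals.
Efna5, 81 bases, chr17:62613316-62613396, minus strand: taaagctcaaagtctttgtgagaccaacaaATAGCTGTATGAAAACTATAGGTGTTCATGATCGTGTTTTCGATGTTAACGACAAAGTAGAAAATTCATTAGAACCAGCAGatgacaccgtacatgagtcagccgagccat

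**Figure D1:**
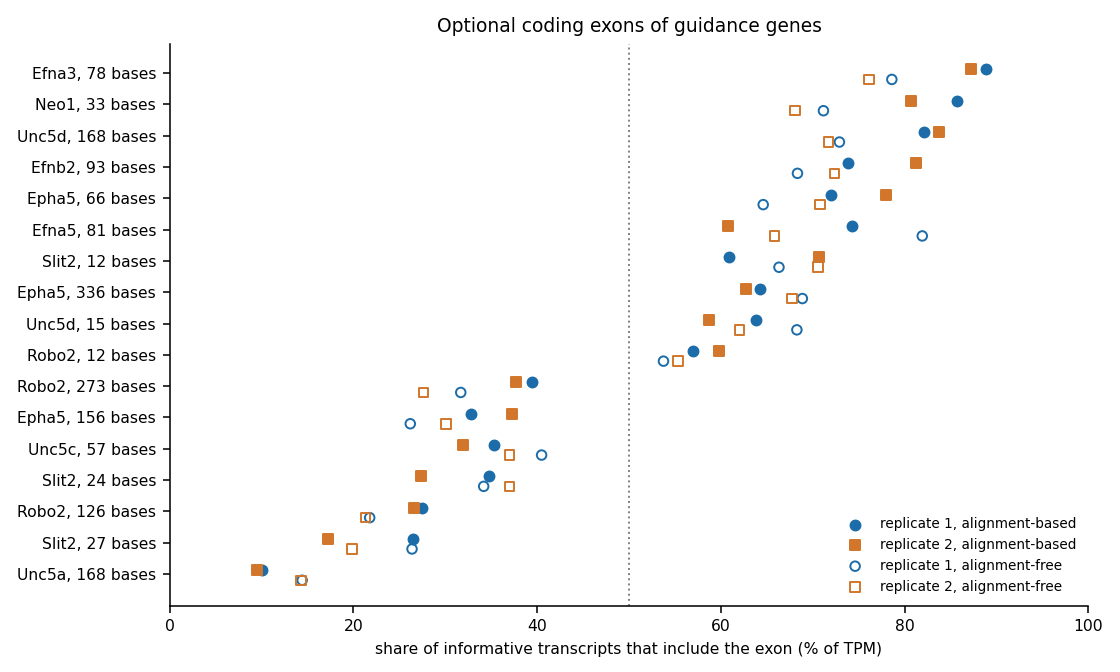
Included share of 17 optional coding exons (percent of the TPM of informative transcripts, horizontal axis), with filled points for the alignment-based tables, open points for the alignment-free tables, circles for replicate 1 and squares for replicate 2. Each exon keeps its side of the dotted 50% line in all 4 values, from the 78-base exon of Efna3 at 88.9% and 87.3% down to the 168-base exon of Unc5a at 10.0% and 9.6%.

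Epha7 transcripts had several coding ends. EphA7 is known in forms that lack the kinase domain and can weaken or alter the response of the full receptor. Epha7-202, with 610 codons, held 35.1% of the gene's TPM in replicate 1 and 33.3% in replicate 2, and Epha7-204, with 626 codons, held 21.7% and 25.1%. The longest form, Epha7-201 with 998 codons, held 18.2% and 25.4%. Epha7-202 was ahead per transcript in both animals, and Epha7-204 and Epha7-201 were nearly level in replicate 2, while by share of reads, which favours long transcripts, Epha7-201 led with 34.9% and 47.8%. All 3 forms share 1798 coding bases and then part, with the bases after the branch printed in capitals: each short form runs to its own stop codon, and the long form goes on.
Epha7-202, chr4:28946219-28946253, plus strand: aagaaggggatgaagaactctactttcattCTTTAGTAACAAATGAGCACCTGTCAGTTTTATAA
Epha7-204, chr4:28966523-28966605, plus strand: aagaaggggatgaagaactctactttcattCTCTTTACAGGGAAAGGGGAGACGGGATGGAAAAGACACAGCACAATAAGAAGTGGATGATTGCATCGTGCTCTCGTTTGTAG
Epha7-201, chr4:28947528-28947587, plus strand: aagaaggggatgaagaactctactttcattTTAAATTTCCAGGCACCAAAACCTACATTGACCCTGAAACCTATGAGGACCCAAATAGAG

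Complete coding transcripts of 700 codons or fewer summed to 56.8% of Epha7 TPM in replicate 1 and 58.3% in replicate 2, with the limit chosen after the forms were seen. In Epha3 the same class held 11.1% and 1.93%, in Ephb1 3.86% and 4.65%, and in Epha10 19.9% and 18.7%, in the form of Epha10-201 with 292 codons. It was at 0 in Epha4, Epha5, Epha6, Epha8, Ephb2, Ephb3 and Ephb6. Transcripts annotated as not coding or as decay targets held 34.8% and 29.8% of Epha6, and 28.9% and 29.4% of Epha5.

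**Figure D2:**
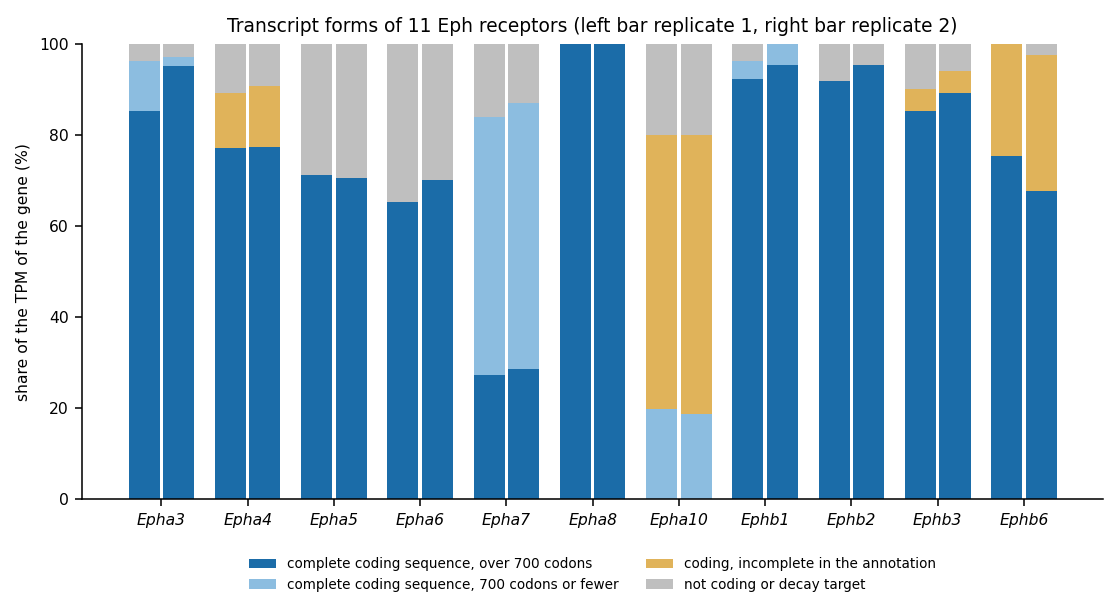
Share of each gene's TPM (percent, stacked to 100) held by 4 classes of annotated transcript in 11 Eph receptors, with the left bar for replicate 1 and the right bar for replicate 2. The class of complete coding sequences of 700 codons or fewer is highest in Epha7, at 56.8% and 58.3%, next in Epha10, at 19.9% and 18.7%, and lower or at 0 in the other 9 receptors.

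Nearly all members were present. At 1 TPM or more in both libraries were 37 of the 41 genes, or 90.2%, against 59.1% of protein-coding genes and 26.9% of all genes. The 5 highest, Epha4, Robo2, Ephb6, Neo1 and Epha5, held 42.8% of the summed member TPM in replicate 1 and 46.2% in replicate 2. Over transcripts with complete coding sequences only, the 5 highest were Epha4, Ephb6, Efnb3, Neo1 and Robo2, with Efnb3 in place of Epha5. The 4 genes under the limit were Epha2 (0.95 and 1.09 TPM), a receptor of epithelial and progenitor cells, Efna4 (0.53 and 0.59), Ntn5 (0.22 and 0.23) and Epha1 (0.11 in both). Only 6 and 7 reads lay on Epha1 and on Ntn5, and 15 and 18 on Efna4. In the alignment-free tables Epha2 stood at 5.28 and 3.14 TPM, so its level depended on the quantification.

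**Figure D3:**
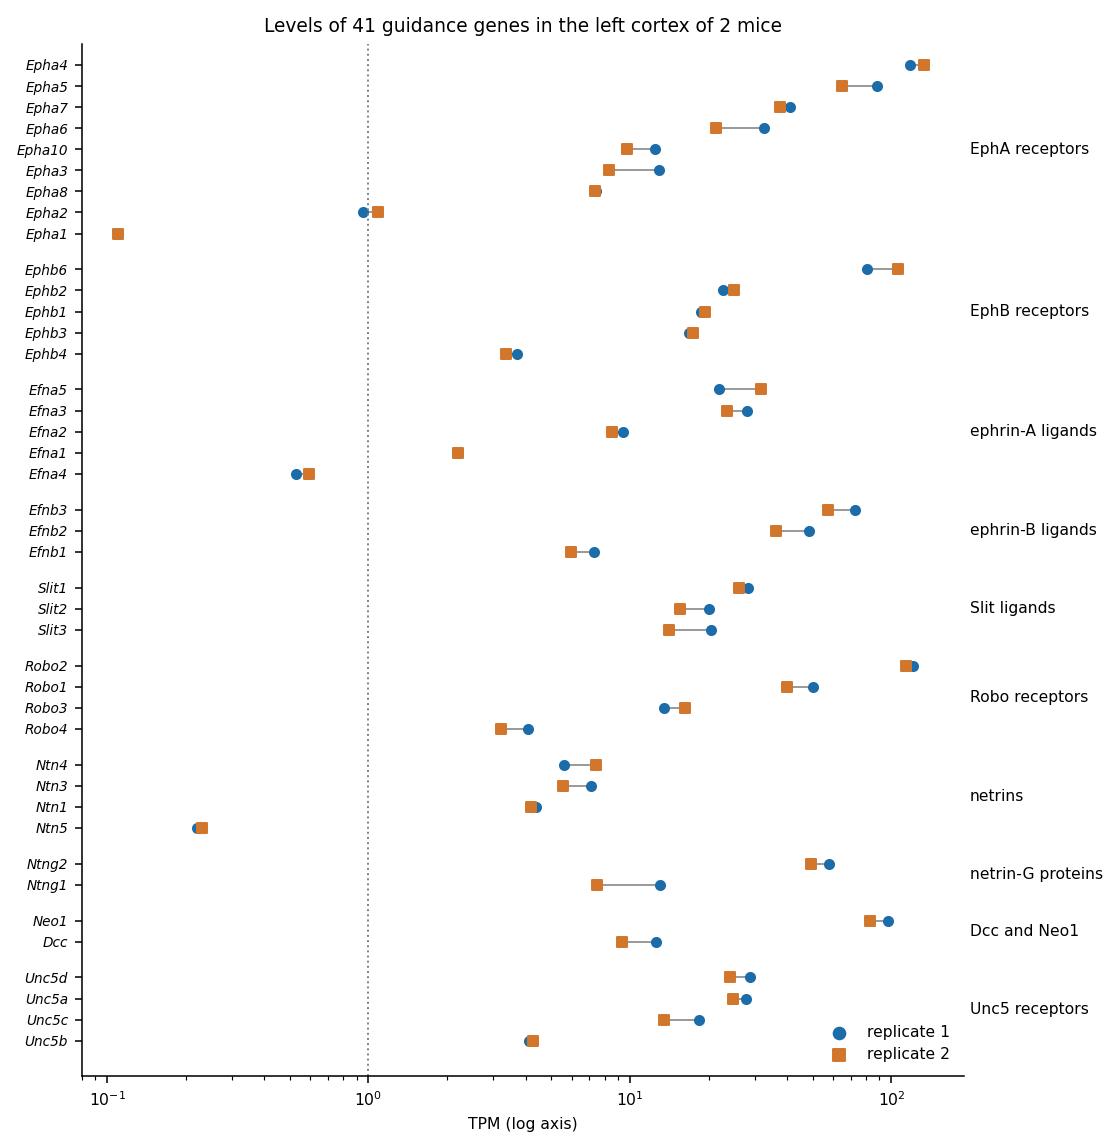
TPM of the 41 genes on a log axis, grouped by family, with a circle for replicate 1, a square for replicate 2 and a line between them. The dotted line marks 1 TPM. Epha4, Robo2, Ephb6, Neo1 and Epha5 lie furthest right, and Epha1, Ntn5 and Efna4 lie left of the line in both animals.

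Among the EphA receptors, Epha4 led with 118 TPM in replicate 1 and 133 in replicate 2 (125 ± 10.4). It is a receptor for ephrins of both classes and was the highest of all 41 genes, above 94.2% of detected protein-coding genes. Its range overlapped that of Robo2, so the order of the top pair is not resolved. Epha5 followed with 88.4 and 65 TPM, then Epha7 with 40.8 and 37.4 and Epha6 with 32.5 and 21.4. Epha4, Epha5 and Epha7, receptors long studied in the mapping of cortical and thalamic projections, together made up 78.8% and 83.1% of EphA TPM. Epha10, which is catalytically inactive, was at 12.5 and 9.74, Epha3 at 12.9 and 8.29, and Epha8 at 7.4 and 7.34. Epha7 lay above the next member in the order without overlap, whereas Epha10 and Epha3 overlapped each other.

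Of the EphB receptors, Ephb6 was the highest, at 80.4 and 106 TPM (93 ± 17.8). It too lacks kinase activity. Ephb6 held 56.5% and 61.8% of EphB TPM, and Ephb6 with Epha10 held 20.4% and 25.4% of the TPM of all 14 Eph receptors. The catalytically active receptors Ephb2, Ephb1 and Ephb3, which act in dendritic spine formation, were at 22.7 and 25 TPM, 18.6 and 19.4 TPM, and 16.8 and 17.5 TPM. The ranges of those 3 did not overlap one another, but in the alignment-free tables Ephb1 (24.9 and 29.2) and Ephb3 (26.4 and 29.6) overlapped, so their order is not resolved. Ephb4, the venous receptor for ephrin-B2, was low at 3.71 and 3.36.

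EphA receptors summed to 314 TPM in replicate 1 and 283 in replicate 2, and EphB receptors to 142 and 171. The log2 ratio of EphA over EphB was 1.14 and 0.73, a mean of 0.93 ± 0.29, so that the A class was 1.91-fold higher in sum. Both animals had this direction, and the mean lay more than 2 SD from 0. The sums cover 9 EphA and 5 EphB genes. By the median gene the order was the other way, at 11.1 TPM for EphA and 19.0 TPM for EphB.

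The ligands had the opposite balance of sums. Ephrin-B genes summed to 128 and 99.5 TPM and ephrin-A genes to 62 and 66.5, and the log2 ratio of A over B was -1.04 and -0.58 (-0.81 ± 0.33). Efnb3, an ephrin known to hold the corticospinal tract to its side of the midline, was at 72.3 and 57.4 TPM, and Efnb2, of arteries and neurons, at 48.6 and 36.2. Efnb1 was at 7.26 and 5.94. Efna5, the ephrin of topographic maps, was at 21.9 and 31.7 TPM, and Efna3 at 28 and 23.5. Their ranges overlapped, so neither was ahead. Efna2 (9.44 and 8.53) and Efna1 (2.19 in both) were lower. All ephrins together lay below all Eph receptors, with a log2 ratio of -1.26 and -1.45 (-1.36 ± 0.13), a 2.56-fold difference.

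Robo receptors were carried by Robo2, at 121 and 113 TPM, and Robo1, at 50 and 39.8, which made up 90.7% and 88.7% of the family. These are the main neuronal Slit receptors. Robo1 was lower than Robo2 by a log2 ratio of -1.27 and -1.51 (-1.39 ± 0.17). Robo3, a divergent receptor that promotes midline crossing, was at 13.5 and 16.3 TPM. Robo4, the endothelial member, was at 4.08 and 3.22, where 5 endothelial markers summed to 78.6 and 75.9 TPM. The order Robo2, Robo1, Robo3, Robo4 was the same in both animals with no overlap. The leading Robo1 transcript, Robo1-206 with 47.9% and 47.3%, is incomplete in the annotation. Its annotated coding sequence is still long, at 1622 codons, against 1612 in the complete Robo1-201. Over transcripts with complete coding sequences only, Robo1 over Robo2 was -2.88 in place of -1.39. On that basis Robo1 (7.77 and 7.68 TPM) and Robo3 (6.33 and 9.11 TPM) overlapped, so their order depends on the transcripts counted.

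Slit ligands were closer to each other. Slit1 was at 28.2 and 26.2 TPM, Slit2 at 20.1 and 15.5, and Slit3 at 20.4 and 14.1. Slit1 lay above both in each library, with a log2 ratio over Slit2 of 0.49 and 0.75 (0.62 ± 0.19), whereas Slit2 and Slit3 overlapped. Slit1 was split between Slit1-201 of 1531 codons, with 49.0% and 48.7%, and Slit1-203 of 1458 codons, with 44.7% and 46.7%. The alignment-free tables put Slit1-203 first, so the lead between these forms is not resolved. All Slit ligands over all Robo receptors gave -1.45 and -1.63 (-1.54 ± 0.12). Over transcripts with complete coding sequences only, it was -0.53.

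**Figure D4:**
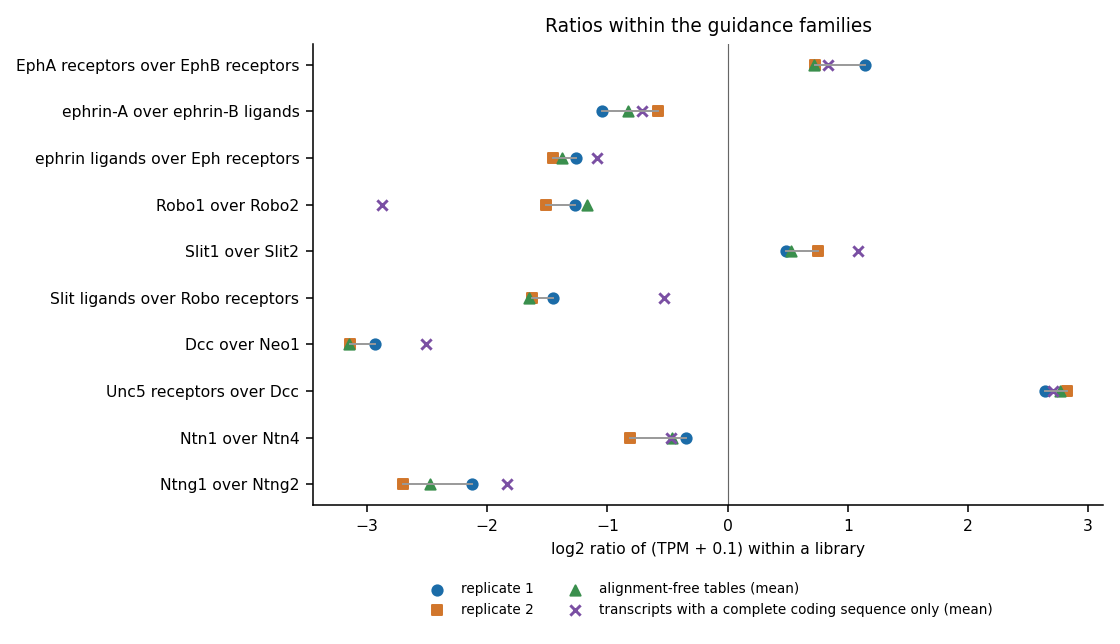
Log2 ratios of (TPM + 0.1) for 10 pairs of genes or families within each library, with circles for replicate 1, squares for replicate 2, triangles for the mean from the alignment-free tables and crosses for the mean over transcripts with a complete coding sequence. None of the 10 pairs changes side of 0 between any of these values, and Robo1 over Robo2 moves furthest, from -1.39 to -2.88, when incomplete transcripts are left out.

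Secreted netrins were the lowest family, at 17.3 and 17.4 TPM in sum. Ntn1, the classical netrin and the ligand of Dcc, was at 4.36 and 4.17 TPM (443 and 452 reads), Ntn4, a netrin of basement membranes, at 5.57 and 7.4, and Ntn3 at 7.11 and 5.56. Ntn3 and Ntn4 overlapped, and both lay above Ntn1. Over transcripts with complete coding sequences only, Ntn3 (4.63 and 3.94 TPM) and Ntn1 (4.17 and 3.87 TPM) overlapped. The order of Ntn3 and Ntn1 thus depends on the transcripts counted. Ntn1 over Ntn4 gave log2 ratios of -0.35 and -0.81 (-0.58 ± 0.33), the only pair of the 10 whose mean was not more than 2 SD from 0. Ntn3 shares exonic bases with Tbc1d24 on the same strand, so that its reads are less certain.

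Their receptors were more abundant. Neo1, which binds netrins and RGM proteins, was at 96.7 and 83.2 TPM, while Dcc was at 12.6 and 9.32. The log2 ratio of Dcc over Neo1 was -2.93 and -3.14 (-3.04 ± 0.15), an 8.21-fold difference. Of Dcc transcripts, the form of 1447 codons, Dcc-202, held 63.6% and 66.7% and that of 1427 codons, Dcc-201, held 29.3% in both. Unc5d was at 28.9 and 24.1 TPM, Unc5a at 27.8 and 24.8 and Unc5c at 18.4 and 13.6, and Unc5b, known from vessels, at 4.11 and 4.25. Unc5d and Unc5a overlapped almost wholly. Unc5 receptors summed to 79.1 and 66.7 TPM, above Dcc by a log2 ratio of 2.64 and 2.83 (2.73 ± 0.13).

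Netrin-G proteins differ from other netrins in that they are anchored in the membrane by a lipid and bind the NGL proteins of the postsynaptic side. Ntng2 was at 57.6 and 49.2 TPM and Ntng1 at 13.1 and 7.46. The log2 ratio of Ntng1 over Ntng2 was -2.13 and -2.70 (-2.42 ± 0.41). The NGL-1 gene Lrrc4c, which codes for the partner of netrin-G1, was at 65.9 and 65.1 TPM, and the NGL-2 gene Lrrc4, for the partner of netrin-G2, at 36.1 and 37.8. Levels of ligand and partner thus stood in opposite order. The leading transcript of Ntng2 was Ntng2-211, annotated as a target of nonsense-mediated decay, with 43.6% and 49.2% of its TPM. Ntng2 shares exonic bases with 6530402F18Rik on the same strand.

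A list of 65 partner genes of these pathways, such as co-receptors, adaptors and small GTPases, was set beside the members. It was matched for 64, of which 63 were at 1 TPM or more in both libraries. Their median was 38.4 and 36.5 TPM, against 18.4 and 15.5 for the members. The median of detected protein-coding genes was 17.1 and 15.9 TPM, near that of the members. The highest were Chn1, a Rac GTPase-activating protein downstream of EphA4 (343 and 344 TPM), Mapt, which encodes tau (297 and 274), Nell2, a secreted ligand of Robo3 (267 and 261), Cdc42 (250 and 224) and Rac1 (214 and 194), the last 2 being small GTPases of the actin cytoskeleton. The lowest were Adora2b, an adenosine receptor (3.33 and 2.74), Draxin, a secreted guidance protein that binds Dcc (1.54 and 1.34), and Vav3, an exchange factor used by Eph receptors (1.36 and 0.84).

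Between the animals, most members agreed within 1.5-fold. Read counts were scaled by TMM, a factor that balances library composition, and 38 members had a mean of 20 reads or more. Of these 1 was at least 1.5-fold apart, or 2.63%, against 2.89% of protein-coding genes and 6.03% of all genes, so the share was near the background. By direction, 1 was lower in replicate 2 (against 1.58% of protein-coding and 4.35% of all genes) and 0 were higher (against 1.31% and 1.68%). The gene was Ntng1, with 823 reads in replicate 1 and 479 in replicate 2, a log2 difference of -0.79. Next came Epha3 with 1128 and 788 reads (-0.53), Epha2 with 61 and 85 (0.461) and Epha6 with 1848 and 1358 (-0.459). After them came Efna5 with 1256 and 1688 (0.41), Robo3 with 965 and 1276 (0.39) and Ephb6 with 4295 and 5623 (0.37). The Epha2 difference rests on few reads and was 0.05 in the alignment-free tables. None of the 64 partner genes was 1.5-fold apart.

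Below that limit, the sizes of the differences were compared with those of other genes. The median size of the log2 difference was 0.20 over the 38 members and 0.10 over 13946 protein-coding genes. At 200 mean reads and above it was 0.20 for 36 members, against 0.08 over 10567 protein-coding genes of that depth. The deposited credible intervals of TPM, which cover quantification error and not the spread between animals, were separate for 18 of 38 members, or 47.4%, against 12.1% of protein-coding genes and 12.6% of all genes. At 200 reads or more they were separate for 18 of 36 members, against 15.1% of protein-coding genes of that depth. Separate and lower in replicate 2 were 14 of the 38 members, or 36.8%, against 9.53% of protein-coding genes and 10.3% of all genes. Most separate genes were lower in replicate 2 in both sets, with 14 of 18 members and 1329 of 1689 protein-coding genes. The median log2 ratio of TPM over protein-coding genes was -0.10. After both libraries were rescaled to the summed TPM of nuclear protein-coding genes, 18 of 38 were separate. That compares with 8.46% of protein-coding genes and 9.18% of all genes. Ephb2 was gained and Epha10 was lost. No test was made of whether this share differs from that of other genes.

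The direction was shared within some families. All 3 ephrin-B genes were lower in replicate 2 (median log2 difference -0.20), as were both netrin-G genes and both Dcc and Neo1. In contrast, 4 of 5 EphB receptors were higher (median 0.22), the exception being Ephb4 at -0.02. These directions held with TMM, DESeq2 size factors, TPM and the alignment-free tables. Both DESeq2 size factors were 1, so that alternative left the counts unscaled. Over all 38 members, 22 were lower in replicate 2, or 57.9%, against 43.8% of protein-coding genes and 47.7% of all genes.

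Several cell type markers also differed between the libraries. Of the oligodendrocyte lineage, the myelin genes Mbp (90 and 181 TPM) and Mog (1.83 and 4.53 TPM) were higher in replicate 2, by 0.96 and 1.42 on the log2 scale, Olig2 was at 12.3 and 13.2 TPM, and the precursor marker Pdgfra was at 36.3 and 29.8 TPM. All 5 striatal markers were lower (47.7 and 34.9 TPM in sum), with Six3 at 0.76 and 0.29 TPM. Interneuron markers were lower in 4 of 5 (302 and 272 TPM), and those of cortical glutamatergic neurons higher in 7 of 8 (900.5 and 899 TPM). Ntng1 is known from thalamic relay neurons, and of 4 thalamic markers 2 were lower (30.7 and 26.2 TPM in sum), with Slc17a6 at 23.5 and 18.4 TPM and Gbx2, a defining marker, near 0 at 0.1 and 0.04. The part of these cell types in the differences of Ntng1, the EphB receptors and the other members was not tested.

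**Figure D5:**
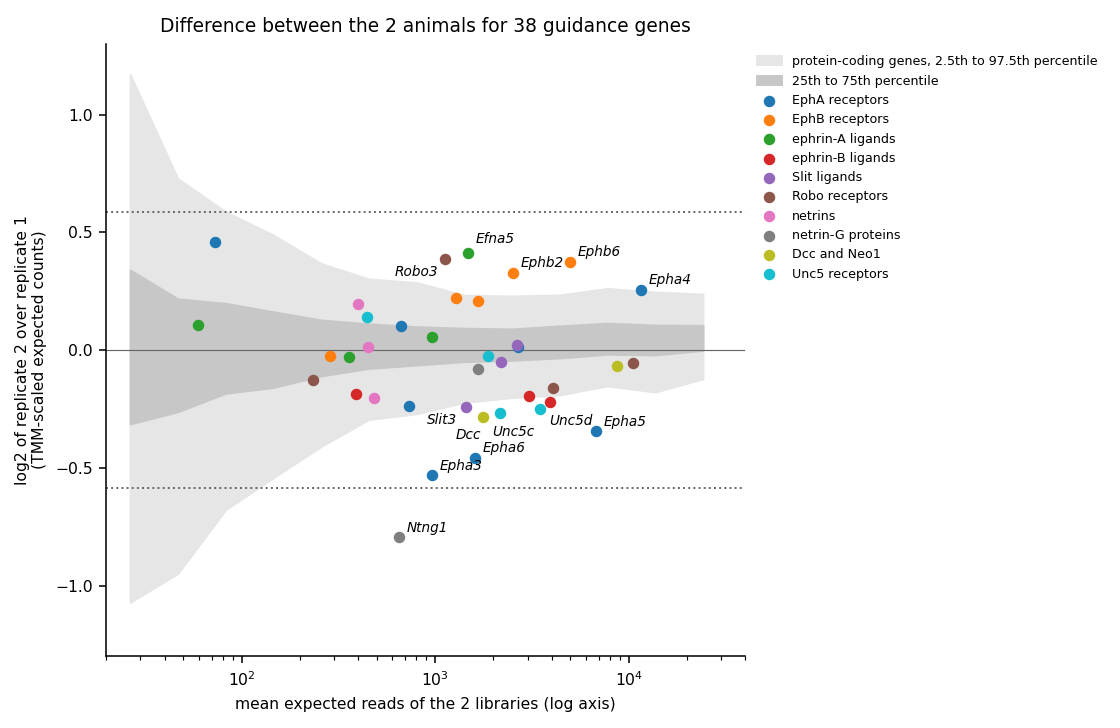
Log2 of replicate 2 over replicate 1 in TMM-scaled reads (vertical axis) against mean reads on a log axis for 38 members coloured by family, over grey bands that hold the central ranges of protein-coding genes of like depth. Dotted lines mark 1.5-fold. Ntng1 at -0.79 is the only member outside them, and Epha3, Epha6 and Epha5 lie low while Epha2, Efna5, Robo3, Ephb6 and Ephb2 lie high.

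Leading transcripts were compared between animals and quantifications. Of the 32 genes at 5 TPM or more in both libraries, 30 had the same leader in both animals, the exceptions being Slit2 and Ntng1, and 29 had the same leader in the alignment-free tables, the exceptions being Slit1, Epha5 and Ntng1. The leader held over 50% in 22 and 90% or more in 5, namely Efna2, Efnb3, Epha8, Efnb1 and Ephb1. The share of Efna2, Efnb3 and Epha8 is fixed at 100%, since each has 1 annotated transcript, and Efnb1-201 held less in the alignment-free tables, at 66.1% on average. The leader had a complete coding sequence in 28, the others being Robo1, Epha10, Epha5 and Ntng2. In Ntng1 the share of Ntng1-208 was 32.5% in replicate 1 and 18.8% in replicate 2 and that of Ntng1-206, a decay target, 18.8% and 31.4%, so the order of these 2 forms differed between the animals. In the alignment-free tables Ntng1-206 was ahead in both, with 29.4% against 27.1% in replicate 1 and 33.03% against 21.99% in replicate 2, so a turn of order is not resolved.

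The genes were long as well. Of the 41, 20 spanned 100 kb or more on the genome, or 48.8%. Among the 37 detected members the share was 54.1%, against 16.2% of detected protein-coding genes. Dcc was the longest, at 1097 kb. All 3 Slit genes passed 100 kb and none of the 3 ephrin-B genes did. Some members are neighbours: Robo3 and Robo4 lie 0.553 kb apart on chromosome 9, at 14.9 and 3.65 TPM on average, and Efna1, Efna3 and Efna4 lie side by side on chromosome 3 with no other coding gene between them, at 2.19, 25.8 and 0.56 TPM. Robo1 and Robo2 are neighbours on chromosome 16, 846 kb apart, at 44.9 and 117 TPM. In each of these groups the neighbours stood at different levels.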

How the data were processed

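Total RNA of the left cortex of 2 mice was quantified by the authors against mm10 and annotation M21, per the deposited README files. Neither the quantification program, its release nor any use of strand is named: not given in the sources used here. Per the file headers, each library has expected counts, TPM, a percent of the gene held by each transcript, and credible-interval bounds, which are recorded here as signal; their level is not given. A second deposited table per library holds estimated counts and TPM made without alignment. Alleles of the F1 animals were not separated.

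Computed here were means and SD of TPM, log2 ratios of TPM + 0.1 within a library, and ratios of rounded expected counts between libraries, with 0.5 added, scaled by TMM (edgeR 4.0.16, R 4.3.3). Factors were 1.01 and 0.986. A gene entered the ratios with a mean of 20 reads or more. DESeq2 1.42.0 gave size factors in an alternative, and both were 1. The steps were tested on simulated data. Transcripts and coordinates are from GENCODE M21, matched by identifier. Tables used Python 3.11.15 and pandas 2.3.3. Alternatives were other quantifications, pseudocounts, limits and scalings, and leaving out each animal. The members, lists and pairs were chosen with earlier results of these data known. Every member was named. A marker gene of the fixed lists is not reported here. Partners named are the 5 highest, the 3 lowest, those under 1 TPM and the netrin-G partners. Transcripts named are leaders, and some second forms at 20% or more. A rule on kinase motifs was not applied, since no protein sequences were used here. Labels name the animals as separate females, but whether they share a litter is not given.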

Additional observations from a re-analysis of the deposited data

How the results depend on the processing

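No paired analysis was possible because the samples form 1 group. The log2 ratios of all 10 pairs kept their direction under every alternative run. Using only transcripts with complete coding sequences, an alternative chosen after seeing the data, moved ephrins over Ephs to -1.09, Robo1 over Robo2 to -2.88, Slit1 over Slit2 to 1.08, Slit ligands over Robo receptors to -0.53, Dcc over Neo1 to -2.51 and Ntng1 over Ntng2 to -1.83; by construction these drop incomplete and decay transcripts. The alignment-free tables moved Robo1 over Robo2 to -1.17, and the cause was not tested. Members at least 1.5-fold apart numbered 3 by the ratio of TPM (Epha3, Epha6 and Ntng1), and 0 were 2-fold apart. Member levels moved by more than 1 SD for all 41 genes in the alignment-free tables and after rescaling to nuclear protein-coding genes, for 19 over complete transcripts, and for 6 by the posterior mean. Counting depth limits Epha1, Ntn5 and Efna4.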
